A study of Mus musculus with 4 samples.

Results

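The transcripts described here encode matrix proteases, their relatives and their inhibitors. They were taken from 2 lists of N6-methyladenosine (m6A) peaks of mouse heart as every row whose gene name starts with Adam or Mmp or Timp plus a digit, or with Adamts. The rule found 145 peaks in 38 genes, of 41945 peaks in 12182 genes in all. Of these, 81 peaks in 37 genes stood in the Wtap-CKO list and 64 peaks in 33 genes in the Wtapflox/flox list. By family the 38 genes were 1 TIMP, 8 MMP, 9 ADAM, 16 ADAMTS and 4 ADAMTS-like genes.

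Hearts came from Wtap-CKO mice and from Wtapflox/flox mice, both 4 days old. The knockout libraries are titled WBKO and their peak list is labelled WCKO, and the genotype label, Wtap-CKO, was followed. The WTAP protein helps to place and hold the enzymes that write m6A, and the Wtapflox/flox mice carry the floxed allele. The labels used here name no Cre driver, so the cells that lost Wtap are not stated. RNA was pooled from 8 Wtap-CKO mice and from 7 Wtapflox/flox mice, and each genotype gave 1 anti-m6A immunoprecipitation (IP) library and 1 input library. The 4 libraries held no replicates, so the genotypes cannot be tested against each other, and the exact 95% intervals given here reflect counting error alone.

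Matrix metalloproteinases (MMPs) cut collagens and other matrix proteins, and several of them are anchored in the cell membrane. ADAM proteins are membrane proteins, many of which cut the outer parts off growth factors, receptors and adhesion molecules, while the secreted ADAMTS proteins cut proteoglycans such as versican or trim procollagens. TIMP proteins inhibit these enzymes, and ADAMTS-like proteins resemble ADAMTS proteins but lack the protease domain. In the developing heart these enzymes remodel the matrix of cushions, valves and trabeculae. m6A is placed on RNA mostly in long exons and near stop codons, and in MeRIP-seq it appears as a stretch of RNA that the antibody enriches over input.

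Each peak has 2 values from the authors' caller. The fold is IP over input for that peak and describes it within its own list, and log10 q gives the evidence for enrichment, where a more negative value is stronger. Peaks with q at or under 1e-10 are called strong here. A peak was shared if it had 1 or more exonic bases in common with a same-strand peak from the other genotype's list, and single-list if not. The whole Wtap-CKO list held 21179 peaks with a median fold of 7.03, and the whole Wtapflox/flox list held 20766 peaks with a median fold of 7.22. All 7 cardiomyocyte markers checked had peaks in both lists. Wtap itself had 4 peaks in the Wtap-CKO list and 3 in the Wtapflox/flox list. Its peaks do not check the deletion, since a fold is no transcript level. The lists hold no read counts, so depth was unknown, and a difference in depth or pull-down between libraries can move both q and the number of peaks.

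Most peaks of these transcripts were found in both genotypes. Of the 38 genes, 32 had peaks in both lists, 5 in the Wtap-CKO list only and 1 in the Wtapflox/flox list only. Over all genes with a peak these shares were 11.9% for the Wtap-CKO list and 10.5% for the Wtapflox/flox list, so the first count (13.2%, 4.41 to 28.1) lay near its background, and the interval of the second (2.63%, 0.0666 to 13.8) included its own. By number of peaks, 16 of the 38 genes (42.1%, 26.3 to 59.2) had more in the Wtap-CKO list and 4 (10.5%, 2.94 to 24.8) had more in the Wtapflox/flox list, while 18 had equal numbers. Over all genes 30.4% had more peaks in the Wtap-CKO list and 25.6% had more in the Wtapflox/flox list.

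**Figure D1:**
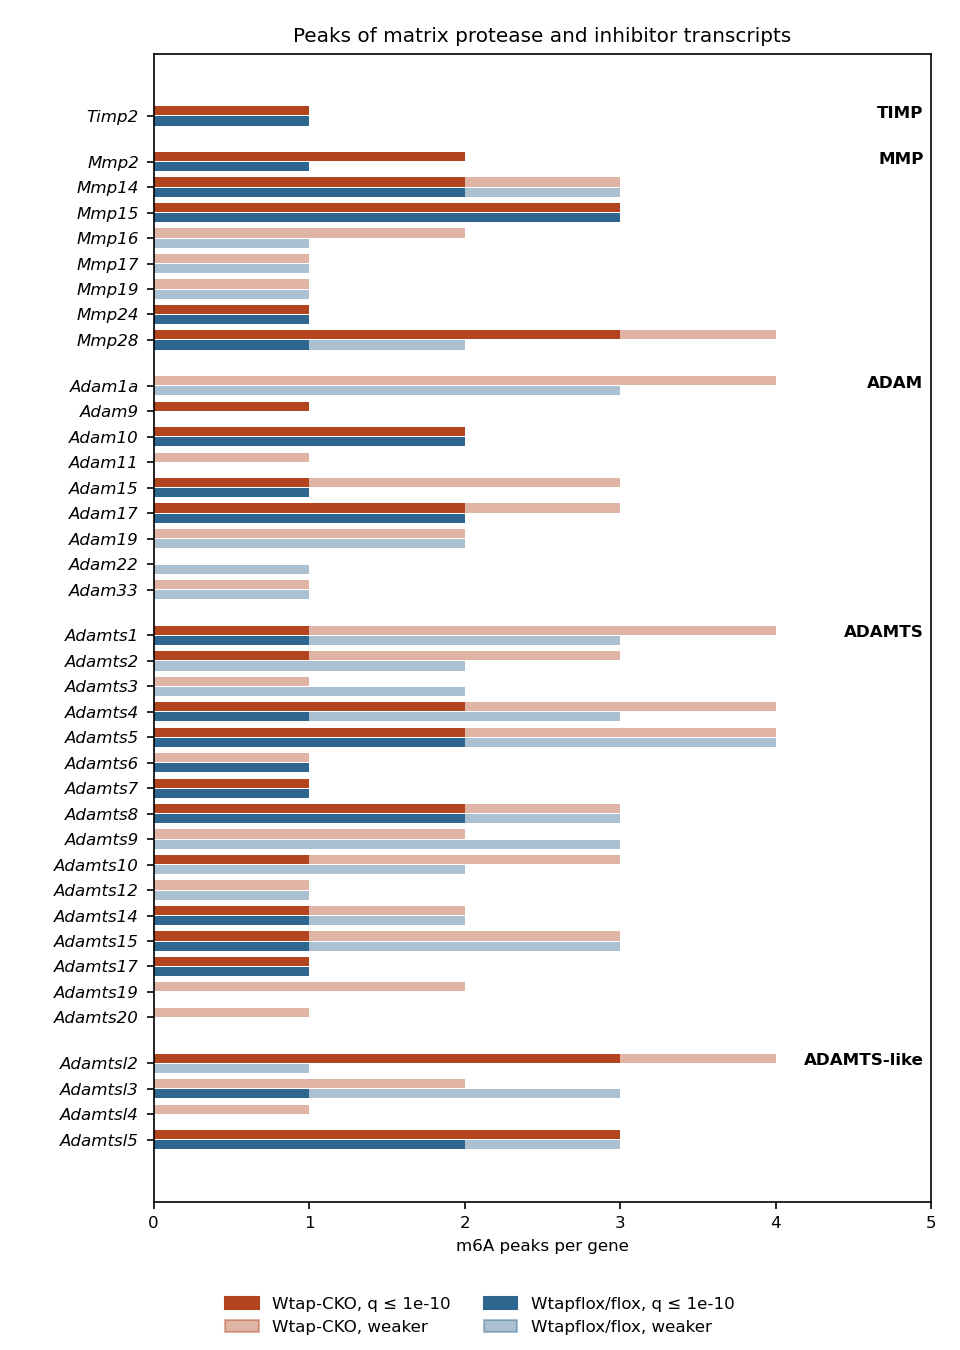
Number of m6A peaks (horizontal axis) for each of the 38 genes, grouped by family, with the Wtap-CKO bar above the Wtapflox/flox bar. The dark part of a bar is the strong peaks (q at or under 1e-10) and the pale part the weaker ones. No gene had more than 4 peaks in either list.

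Peaks without a counterpart were more frequent on the Wtap-CKO side. In the Wtap-CKO list, 26 of 81 peaks (32.1%, 22.2 to 43.4) had no counterpart, against 24.5% of all peaks of that list. In the Wtapflox/flox list, 5 of 64 peaks (7.81%, 2.59 to 17.3) had none, against 23.9% of all peaks. The first interval included the whole-list share and the second lay below it. Of the strong peaks, 5 of 37 in the Wtap-CKO list (13.5%, 4.54 to 28.8) had no counterpart, against 4.04% of all strong peaks there. None of 28 in the Wtapflox/flox list lacked one, against 8.72% of all strong peaks, a share within the members' interval of 0 to 12.3%. Of the 5 strong Wtap-CKO-only peaks, 2 lay in Adamtsl2. Without that gene the count was 3 of 34 (8.82%, 1.86 to 23.7), and this interval included the whole-list share of 4.04%. The distance from the whole list also depended on the minimum fold. When both lists were limited to folds of 4 or more, 6 of 34 strong member peaks of the Wtap-CKO list (17.6%, 6.76 to 34.5) had no counterpart, against 13.6% of all. With folds of at least 2 the whole-list share was 5.36%, and with q at or under 0.001 it was 5.62%, both within the members' interval of 4.54 to 28.8%. In these settings the lists were cut before overlaps were taken, so shared peaks that lost their counterpart also counted as single-list. At folds of 4 or more this held for the strong Adam15 peak, with a fold of 15.9 in the Wtap-CKO list and of 2.86 in the Wtapflox/flox list. The intervals treat peaks as independent, although peaks of the same gene share their transcript.

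**Figure D2:**
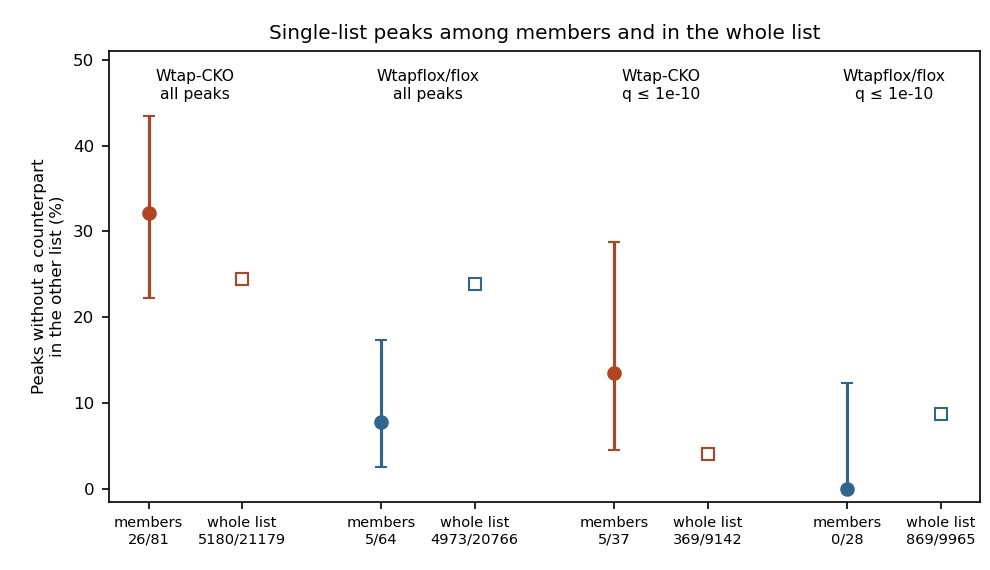
Percentage of peaks without a counterpart in the other list (vertical axis) for the 38 genes (filled circles) and the whole list (open squares), for all peaks and for peaks with q at or under 1e-10. Bars are exact 95% intervals and the fractions under the axis are counts. The members' share is 32.1% in the Wtap-CKO list and 7.81% in the Wtapflox/flox list.

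In exonic bases, member peaks covered 29258 bases in the Wtap-CKO list and 22393 bases in the Wtapflox/flox list, and 18588 bases lay in both. That is 63.5% of the Wtap-CKO bases and 83.0% of the Wtapflox/flox bases. The median peak held 270 exonic bases in either list. In 47 one-to-one pairs the Wtap-CKO peak was longer 28 times, the Wtapflox/flox peak 15 times, and 4 pairs were equally long. The whole lists ran the other way in size. Their peaks held 7.05 Mb of exonic bases (median 241 bases) in the Wtap-CKO list and 7.47 Mb (median 270) in the Wtapflox/flox list. Shared bases and pair lengths were not computed over all peaks.

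Most single-list peaks of these genes were weak, as were those of the whole lists. In the Wtap-CKO list their median log10 q was -3.92, against -14.5 for shared member peaks, and in the Wtapflox/flox list it was -3.08, against -8.36. Over all peaks the medians were -3.20 against -11.9 in the Wtap-CKO list and -3.73 against -13.3 in the Wtapflox/flox list. The 5 strong ones were in Adamtsl2, Mmp2, Mmp28 and Adam9. Their folds, between 2.62 and 20.6, were not the highest of the list. The highest folds stood on shared peaks, such as those of Adamts2, Adamts17 and Adam10 described below.

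**Figure D3:**
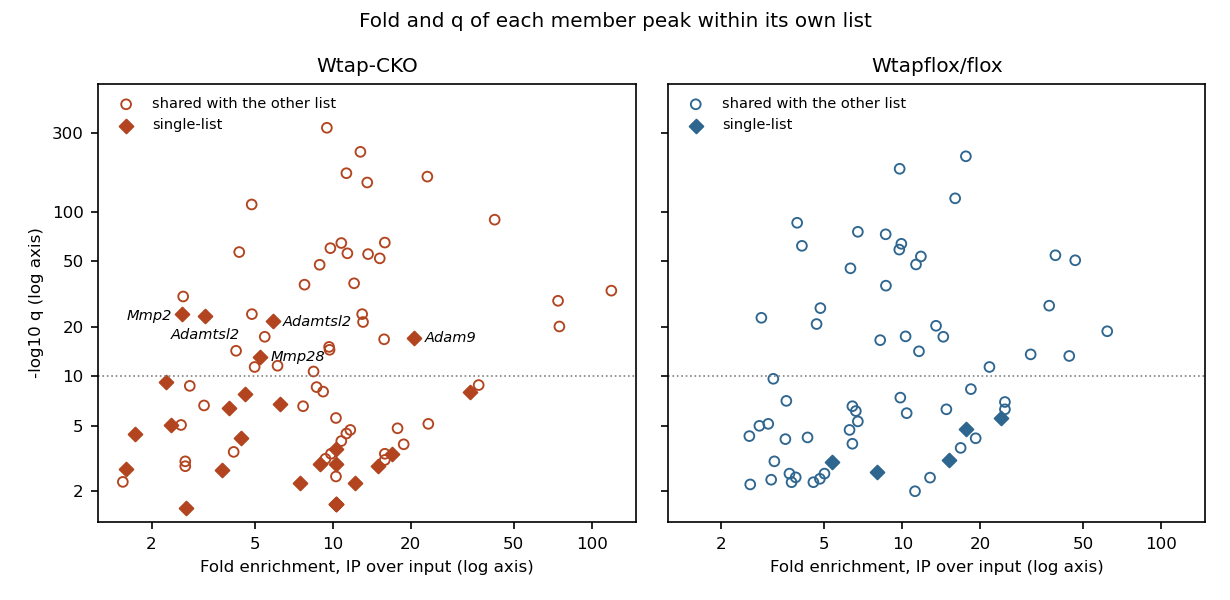
Fold enrichment of IP over input (horizontal log axis) against -log10 q (vertical log axis) of each member peak, with the Wtap-CKO list on the left and the Wtapflox/flox list on the right. Open circles are shared and filled diamonds single-list peaks, the dotted line marks q of 1e-10, and the Adamts1 peak whose log10 q is minus infinity is drawn at its log10 p of -325. Named diamonds above the line are the 5 strong Wtap-CKO-only peaks, and no Wtapflox/flox diamond lies above it.

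The inhibitors were represented by Timp2, which encodes a secreted inhibitor that also takes part in the activation of MMP2 at the cell surface. Timp2 had a peak on chromosome 11 (minus strand, all positions in build GRCm39) at 118245830 to 118246279 in the Wtap-CKO list, with a fold of 11.3 and a log10 q of -172. In the Wtapflox/flox list it lay at 118245890 to 118246249, with a fold of 8.63 and a log10 q of -73.1. Both were strong, and the Wtapflox/flox peak lay inside the Wtap-CKO peak. Timp1, Timp3 and Timp4 had no row in either list used here. Whether their RNA was present cannot be read from peak lists.

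The gelatinase gene Mmp2, whose product cuts denatured collagen and basement membrane collagen, had a shared peak and a further strong peak in the Wtap-CKO list. The shared peak lay on chromosome 8 at 93553949 to 93554307 in the Wtap-CKO list (fold 10.8, log10 q -64.7) and at 93553979 to 93554307 in the Wtapflox/flox list (fold 6.74, log10 q -75.7). The further peak, 24965 bases downstream at 93579273 to 93579601, had a fold of 2.62 and a log10 q of -23.9. Its fold was low for its list, since 89.3% of Wtap-CKO peaks had a fold as high. It was thus called with strong evidence at a small enrichment.

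Of the membrane-type MMP genes, Mmp14, Mmp15, Mmp16, Mmp17 and Mmp24 had shared peaks and Mmp25 had no row in either list. Mmp14 encodes the membrane-type enzyme that activates MMP2 at the cell surface, and its 3 peaks in each list all overlapped. Its most downstream peak spanned 3 exonic blocks on chromosome 14, at 54677415 to 54681653 in the Wtap-CKO list (fold 12.8, log10 q -232) and at 54677475 to 54681444 in the Wtapflox/flox list (fold 16.0, log10 q -121). The most upstream peak started at the same base, 54669069, in both lists, with a fold of 13.7 (log10 q -55.4) in the Wtap-CKO list and of 4.67 (log10 q -20.8) in the Wtapflox/flox list. The peak between them was weak in both, with a fold of 23.4 (log10 q -5.14) in the Wtap-CKO list and of 19.2 (log10 q -4.20) in the Wtapflox/flox list.

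Mmp15, which encodes another membrane-type enzyme, was the only member with 3 strong peaks in each list. Its most upstream peak had the same ends in both lists, at 96078896 to 96079526 on chromosome 8, with a fold of 13.6 (log10 q -151) in the Wtap-CKO list and of 9.77 (log10 q -183) in the Wtapflox/flox list. The next peak had a fold of 2.65 (log10 q -30.6) in the Wtap-CKO list and of 3.93 (log10 q -85.9) in the Wtapflox/flox list. The most downstream peak had a fold of 4.36 (log10 q -57.0) in the Wtap-CKO list and of 4.10 (log10 q -62.2) in the Wtapflox/flox list. In Mmp15 all 3 peaks thus had the smaller q in the Wtapflox/flox list, while in Mmp14 all 3 had it in the Wtap-CKO list, so these genes did not lean to the same list. Mmp24 had 1 strong peak in each list (fold 9.80 in the Wtap-CKO list, 11.3 in the Wtapflox/flox list), at a position where BC029722, on the other strand, also had a peak. Whether the libraries kept strand is not stated, so the peaks of the overlapping genes cannot be told apart. The single peaks of Mmp17 and Mmp19 were weak and shared, and Mmp16 had a weak shared peak and a weak Wtap-CKO-only peak (fold 8.91, log10 q -2.92).

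Mmp28, which encodes the secreted enzyme epilysin, had 4 peaks in the Wtap-CKO list and 2 in the Wtapflox/flox list, on the minus strand of chromosome 11. The most downstream peak had the same ends in both lists, 83331713 to 83332339, with a fold of 11.4 (log10 q -56.0) in the Wtap-CKO list and of 10.3 (log10 q -17.5) in the Wtapflox/flox list. A peak of 1700020L24Rik on the other strand overlapped it in both lists, with the same limit. The second shared peak had a fold of 12.1 (log10 q -36.8) in the Wtap-CKO list and of 4.31 (log10 q -4.25) in the Wtapflox/flox list. Between these shared peaks the Wtap-CKO list held a strong peak of its own at 83332637 to 83332875 (fold 5.23, log10 q -13.1), 237 bases from the nearer of them. The fourth, 20098 bases upstream of the others, was weak (fold 3.75, log10 q -2.71). Both shared Mmp28 peaks had the smaller q in the Wtap-CKO list.

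Of the ADAM genes, 6 had peaks in both lists. Adam10 and Adam17, which encode the main sheddases of Notch receptors and of TNF and EGF receptor ligands, carried strong peaks in both. Adam10 had a peak at 70586279 to 70586519 on chromosome 9 with identical ends in both lists, with a fold of 74.1 (log10 q -28.8) in the Wtap-CKO list and of 36.9 (log10 q -26.9) in the Wtapflox/flox list. These folds were among the highest 0.416% of Wtap-CKO peaks and the highest 1.53% of Wtapflox/flox peaks. Its second peak, at 70685534, had a fold of 4.88 (log10 q -23.9) in the Wtap-CKO list and of 4.83 (log10 q -26.0) in the Wtapflox/flox list. Both Adam10 peaks were therefore strong in both genotypes.

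Adam17 showed how a difference in peak number can come without a difference in place. It had 3 peaks in the Wtap-CKO list and 2 in the Wtapflox/flox list, on the minus strand of chromosome 12. The Wtapflox/flox peak at 21374198 to 21374827 (fold 6.31, log10 q -45.4) overlapped a pair of Wtap-CKO peaks, at 21374198 to 21374558 (fold 7.79, log10 q -36.1) and at 21374707 to 21374797 (fold 2.70, log10 q -3.04). The other shared peak had a fold of 8.91 (log10 q -47.7) in the Wtap-CKO list and of 9.74 (log10 q -59.0) in the Wtapflox/flox list. No Adam17 peak was single-list. Overlaps with more than 1 counterpart occurred for 6 Wtap-CKO peaks and 3 Wtapflox/flox peaks of the members. These counts include Adamtsl5, where 2 peaks overlapped each other within each list, so that no call was split.

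Adam9, whose product is another membrane sheddase, was the only gene of the set with a strong peak in the Wtap-CKO list and no peak in the Wtapflox/flox list. The peak lay on chromosome 8 (minus strand) at 25506734 to 25506943, with a fold of 20.6 and a log10 q of -17.2. The shared peak of Adam15 had a fold of 15.9 (log10 q -65.1) in the Wtap-CKO list and of 2.86 (log10 q -22.7) in the Wtapflox/flox list, and 2 further weak peaks were in the Wtap-CKO list only. Adam11 and Adam22 encode ADAM proteins without protease activity that are best known from the nervous system. Adam11 had a weak peak in the Wtap-CKO list only (fold 15.0, log10 q -2.86) and Adam22 a weak peak in the Wtapflox/flox list only (chromosome 5, 8127504 to 8127833, fold 17.6, log10 q -4.75). Adam1a, known in mice for a role in sperm, had 4 weak peaks in the Wtap-CKO list (log10 q between -2.46 and -4.49) and 3 in the Wtapflox/flox list (between -2.56 and -6.15), of which 1 overlapped a peak of Gm42878 on the same strand. The 2 peaks of Adam19, a gene of heart valve and septum formation in mice, and the peak of Adam33 were weak and shared in both lists.

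The largest family was ADAMTS, with 36 peaks of 16 genes in the Wtap-CKO list and 31 peaks of 14 genes in the Wtapflox/flox list. All 13 strong Wtap-CKO peaks and all 11 strong Wtapflox/flox peaks of this family were shared, so its single-list peaks, 13 and 4, were all weak. Over the whole lists, 4.04% of strong Wtap-CKO peaks and 8.72% of strong Wtapflox/flox peaks were single-list, and 24.5% and 23.9% of all peaks. With so few strong peaks, their counts do not set the family apart from the whole lists. Adamts1, Adamts4, Adamts5 and Adamts9 encode enzymes that cut versican and related proteoglycans. Adamts1 had the strongest peak of all 38 genes, on the minus strand of chromosome 16 at 85592063 to 85592841 in the Wtap-CKO list (fold 9.50, log10 q listed as minus infinity) and at 85592123 to 85592901 in the Wtapflox/flox list (fold 17.6, log10 q -218). It had 2 further shared peaks with folds between 2.57 and 3.12, and a weak Wtap-CKO-only peak (fold 3.99, log10 q -6.46).

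Adamts5 had 4 peaks in each list, also on the minus strand of chromosome 16, but with different shapes. Its downstream peak had a fold of 23.2 (85658636 to 85663546, log10 q -164) in the Wtap-CKO list and of 39.0 (85658906 to 85663516, log10 q -54.5) in the Wtapflox/flox list. Upstream, a single Wtap-CKO peak with 1470 exonic bases (85684834 to 85697517, fold 42.2, log10 q -89.7) overlapped 3 Wtapflox/flox peaks. Those had folds of 13.5 (log10 q -20.3), 2.59 (-2.20) and 18.4 (-8.36). The remaining 2 Wtap-CKO peaks, further upstream, were weak and single-list, each with a fold of 10.3. Equal peak counts in this gene thus stood for 1 broad call in the Wtap-CKO list beside 3 short calls in the Wtapflox/flox list.

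Adamts4 had 4 peaks in the Wtap-CKO list and 3 in the Wtapflox/flox list on chromosome 1, of which 3 in each list overlapped. The most upstream, at 171077990 to 171078259 in the Wtap-CKO list, had a fold of 9.73 (log10 q -14.5). In the Wtapflox/flox list it lay at 171078020 to 171078229, with a fold of 44.1 (log10 q -13.3). A fold as high was held by 38.0% of Wtap-CKO peaks and by 0.915% of Wtapflox/flox peaks. Adamts9 had 2 peaks in the Wtap-CKO list and 3 in the Wtapflox/flox list, all weak, with log10 q between -2.63 and -6.30. It had a single-list peak in each, with a fold of 2.38 in the Wtap-CKO list and of 8.02 in the Wtapflox/flox list.

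Other ADAMTS genes were singled out after their values were seen. Adamts2, which encodes a procollagen N-proteinase, had the highest fold of any member peak, 119 on chromosome 11 at 50492911 to 50494446 in the Wtap-CKO list (log10 q -33.2), rank 14 of that list. The overlapping Wtapflox/flox peaks had folds of 14.8 (log10 q -6.30) and 3.88 (log10 q -2.43). Adamts17 had a single peak on chromosome 7 with a fold of 75.0 (log10 q -20.1) in the Wtap-CKO list and of 61.8 (log10 q -18.8) in the Wtapflox/flox list. A fold as high was held by 0.387% of Wtap-CKO peaks and by 0.323% of Wtapflox/flox peaks. Peaks of Adamts6, Adamts7 and Adamts15 ran the other way in their evidence. Adamts6 had a log10 q of -3.38 in the Wtap-CKO list and of -13.6 in the Wtapflox/flox list. For Adamts7 it was -16.8 in the Wtap-CKO list and -53.6 in the Wtapflox/flox list. The main peak of Adamts15 had -21.4 in the Wtap-CKO list (fold 13.1) and -50.8 in the Wtapflox/flox list (fold 46.5). Family members thus leaned to either list.

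Adamts19 and Adamts20 had peaks in the Wtap-CKO list only. Adamts19 had 2 weak peaks on chromosome 18, both with a fold of 10.3 (log10 q -2.92 and -1.67), and Adamts20 had 1 on chromosome 15 at 94301978 to 94302218 (fold 33.8, log10 q -8.04). Adamts3 and Adamts14 encode procollagen N-proteinases like Adamts2. Adamts14 had 2 shared peaks in each list, and Adamts3 had a shared peak and a weak Wtapflox/flox-only peak (fold 5.35, log10 q -3.02). Adamts10, whose product binds fibrillin microfibrils, had a shared peak, 2 weak Wtap-CKO-only peaks with folds of at most 1.73, and a weak Wtapflox/flox-only peak with a fold of 15.2. Adamts8 had 3 shared peaks in each list, and Adamts12 had 1.

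Among the ADAMTS-like genes, Adamtsl2 had the largest difference in peak number of the set. Its product binds fibrillin and a latent TGF-beta binding protein in the matrix. Adamtsl2 had 4 peaks in the Wtap-CKO list and 1 in the Wtapflox/flox list on chromosome 2. The shared peak, the most downstream, lay at 26998364 to 26998873 in the Wtap-CKO list with a fold of 4.87 and a log10 q of -111. In the Wtapflox/flox list it covered 151 bases at 26998424 to 26998574, with a fold of 3.21 and a log10 q of -3.04.

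The other 3 Adamtsl2 peaks of the Wtap-CKO list lay upstream and crossed exon borders. They were at 26969391 to 26974012 (5 exonic blocks, fold 5.87, log10 q -21.6), at 26983577 to 26985598 (2 blocks, fold 3.23, log10 q -23.3) and at 26993088 to 26993862 (2 blocks, fold 2.28, log10 q -9.30). The Wtapflox/flox list held no upstream peak of this gene at its q threshold of 0.05.

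**Figure D4:**
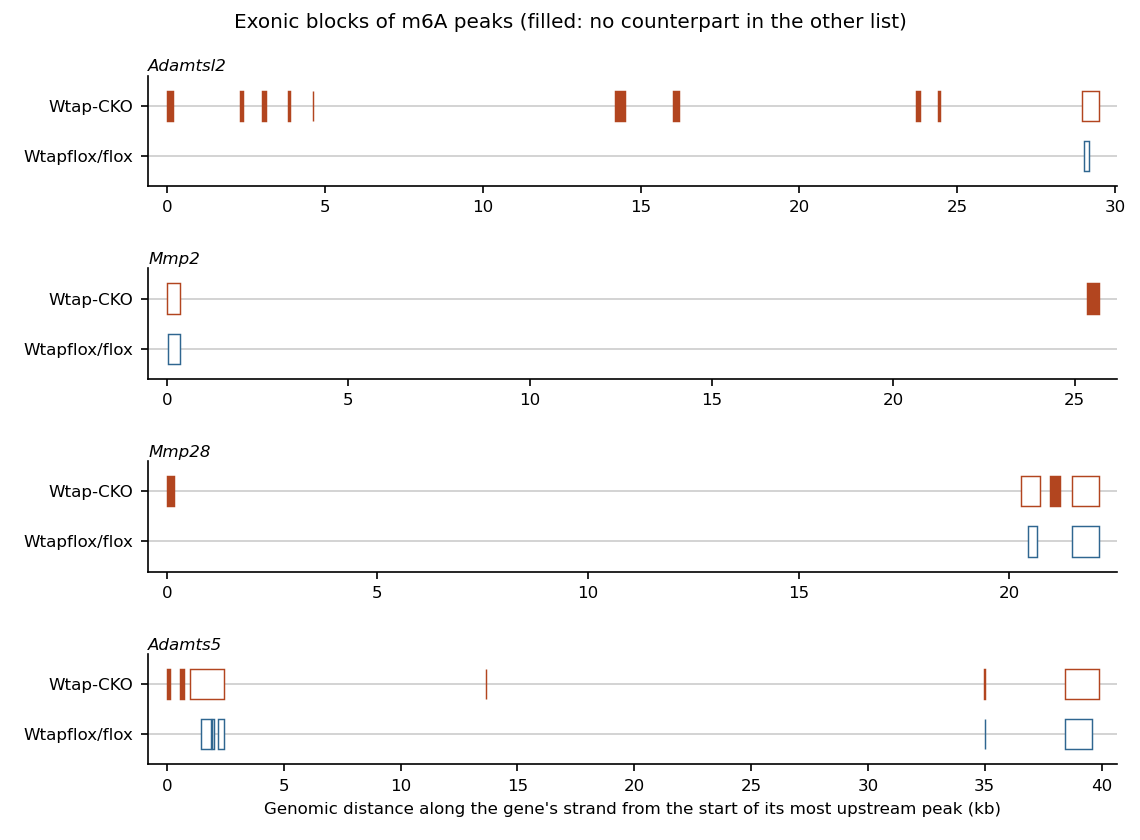
Exonic blocks of the peaks of Adamtsl2, Mmp2, Mmp28 and Adamts5, with the Wtap-CKO row above the Wtapflox/flox row. The horizontal axis is the genomic distance in kb along the gene's strand from the start of its most upstream peak, and each gene has its own scale. Open boxes belong to shared peaks and filled boxes to single-list peaks, and a peak can hold several boxes. Adamtsl2 has 4 peaks in the Wtap-CKO row and 1 in the Wtapflox/flox row, while Adamts5 has 4 in each.

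Adamtsl3 leaned to the other list. It had 2 peaks in the Wtap-CKO list (log10 q -3.10 and -3.15) and 3 in the Wtapflox/flox list (log10 q -2.42, -6.98 and -11.4), all of them shared, and the strongest had a fold of 21.7 in the Wtapflox/flox list. Adamtsl5 had 3 shared peaks in each list on the minus strand of chromosome 10, the most upstream of them at 80176733 to 80177002 in the Wtap-CKO list (fold 4.24, log10 q -14.3) and at 80176524 to 80177181 in the Wtapflox/flox list (fold 9.92, log10 q -64.0). Its 2 downstream peaks overlapped each other within each list, so they are not separate stretches of RNA. Adamtsl4, which encodes a fibrillin-binding protein, had a weak Wtap-CKO-only peak (fold 12.2, log10 q -2.24).

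The place of the strongest peak along the gene was set against that in the series as a whole. Of 23 members with at least 2 peaks in the Wtap-CKO list, the strongest peak was the most upstream in 12 (52.2%, 30.6 to 73.2) and the most downstream in 7 (30.4%, 13.2 to 52.9). Over all such genes the shares were 32.9% and 48.0%. In the Wtapflox/flox list it was the most upstream in 9 of 19 members (47.4%, 24.4 to 71.1) and the most downstream in 8 (42.1%, 20.3 to 66.5), against 28.6% and 51.2% over all genes. The order is that of the peaks along the gene's strand. Placement in coding sequence or UTR was not analysed. All 4 intervals included the share over all genes.

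Of the 26 Wtap-CKO-only peaks, 10 lay downstream and 8 upstream of all shared peaks of their gene, 2 lay between shared peaks, and 6 were in genes without a Wtapflox/flox peak. Of the 5 Wtapflox/flox-only peaks, 2 lay downstream, 2 upstream and 1 in Adam22. Some were far from any shared peak. The 2 weak single-list Adamts2 peaks of the Wtap-CKO list were 200123 and 200602 genomic bases away, and the single-list Adamts9 peak of that list was 169982 bases away. Places were not counted over all single-list peaks, so these counts have no background to be read against.

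Other genes of matrix proteolysis were counted in the same way. The list held 83 genes for other matrix proteases, for inhibitors and clearance, for activation and trafficking, and for matrix and shedding substrates. Of these, 55 had peaks in both lists, 12 in the Wtap-CKO list only, 2 in the Wtapflox/flox list only and 14 in neither. As shares of the 69 with a peak, the single-list counts were 17.4% (9.32 to 28.4) for the Wtap-CKO list, an interval that included the 11.9% over all genes, and 2.90% (0.353 to 10.1) for the Wtapflox/flox list, against 10.5% over all genes. Of the 69, 37 (53.6%, 41.2 to 65.7) had more peaks in the Wtap-CKO list and 6 (8.70%, 3.26 to 18.0) had more in the Wtapflox/flox list. The shares over all genes were 30.4% and 25.6%. Among strong peaks, 10 of 87 in the Wtap-CKO list (11.5%, 5.65 to 20.1) and 1 of 66 in the Wtapflox/flox list (1.52%, 0.0384 to 8.16) had no counterpart. These intervals left out the whole-list shares of 4.04% and 8.72%. They too treat peaks of the same gene as independent, although 2 of the 10 lay in Tnc. The list was also chosen with earlier results of these data known. With both lists limited to folds of at least 4, the whole-list Wtap-CKO share was 13.6%. The strong peaks of the 83 genes were not recounted at that limit, so the 2 shares cannot be compared there.

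Reck, whose product is a membrane-anchored inhibitor of MMPs, had a strong peak in the Wtap-CKO list only (chromosome 4, 43943223 to 43943522, fold 4.32, log10 q -11.2). Ace, whose product is shed from the cell surface, had 2 Wtap-CKO peaks, of which the stronger had a fold of 3.63 (log10 q -25.1), and no Wtapflox/flox peak. The small proteoglycan genes Bgn and Dcn also had a strong peak in the Wtap-CKO list only, with low folds of 1.36 (log10 q -14.8) and 2.43 (log10 q -10.1). The other genes with Wtap-CKO peaks only were Tll1, Htra3, Plau, A2m, Serpinf1, Tspan17, Tspan33 and Comp, all with weak peaks. Tll2 and Tgfa had weak peaks in the Wtapflox/flox list only.

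The genes with most strong peaks on this list were substrates. Cspg4 had 6 strong peaks in each list, Notch2 5 in each, and Vcan, the versican gene, 4 in the Wtap-CKO list and 3 in the Wtapflox/flox list. Efnb2 had 3 in the Wtap-CKO list and 4 in the Wtapflox/flox list, and App and Fbn1 had 3 in each. None of the strong peaks of these 6 genes was single-list, against 4.04% of all strong Wtap-CKO peaks and 8.72% of all strong Wtapflox/flox peaks. Of the groups, matrix substrates had 5 of 35 strong Wtap-CKO peaks and 0 of 27 strong Wtapflox/flox peaks without a counterpart, and shedding substrates had 2 of 27 and 0 of 22. Other matrix proteases had 0 of 8 and 0 of 7, and activation and trafficking had 0 of 11 and 0 of 7. In inhibitors and clearance the counts were 3 of 6 and 1 of 3, the last in Cst3, which had a strong single-list peak in each list.

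Marker genes of heart cell types were set beside the same whole-list shares, 24.5% of Wtap-CKO peaks and 23.9% of Wtapflox/flox peaks single-list, and among strong peaks 4.04% and 8.72%. For 7 fibroblast markers, 8 of 19 Wtap-CKO peaks (42.1%, 20.3 to 66.5) and 1 of 12 Wtapflox/flox peaks (8.33%, 0.211 to 38.5) had no counterpart. For 7 endothelial markers the counts were 8 of 18 (44.4%, 21.5 to 69.2) and 1 of 12. For 7 smooth muscle and pericyte markers they were 6 of 24 (25.0%, 9.77 to 46.7) and 2 of 21 (9.52%, 1.17 to 30.4). All these intervals included the whole-list shares. Among strong peaks, the Wtap-CKO count was 3 of 12 (25.0%, 5.49 to 57.2) for fibroblast and likewise for endothelial markers, above 4.04%, and 1 of 17 (5.88%, 0.149 to 28.7) for smooth muscle markers, and no strong Wtapflox/flox peak of these 3 lists was single-list.

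Over 7 cardiomyocyte markers, 1 of 24 Wtap-CKO peaks (4.17%, 0.105 to 21.1) and 22 of 46 Wtapflox/flox peaks (47.8%, 32.9 to 63.1) were single-list. Both intervals left out the whole-list shares, but the Wtapflox/flox count rested mostly on Ttn. Ttn held 17 of the 22, Ryr2 4 and Pln 1, while Myh6, Myh7, Tnnt2 and Actn2 had 0. The single-list Wtap-CKO peak, a strong one, lay in Myh7. Among strong peaks the counts were 1 of 21 and 11 of 31 (35.5%, 19.2 to 54.6). Of those 11, 6 lay in Ttn, 4 in Ryr2 and 1 in Pln. The balance opposite to the other lists was thus that of these genes and not of every cardiomyocyte marker. The intervals were not recomputed without Ttn. Of the immune markers, Csf1r, Lyz2 and Cd14 had peaks in both lists and Mrc1 in the Wtap-CKO list only, with 3 of 6 Wtap-CKO and 1 of 4 Wtapflox/flox peaks single-list. Lyz2 and Cd14 each had a strong peak in the Wtap-CKO list and weak peaks alone in the Wtapflox/flox list. Of the epicardial markers, Tbx18 had peaks in both lists and Wt1 had 2 weak ones in the Wtap-CKO list only, which were the 2 single-list peaks among 5 in the Wtap-CKO list, against 0 of 2 in the Wtapflox/flox list. Ptprc, Cd68, Adgre1, Upk3b, Msln and Upk1b had no peak in either list. Dcn, Postn, Cdh5 and Cspg4 stand on both the marker and the proteolysis lists. In whole hearts, the presence of peaks does not tell apart the number of cells of a type, RNA per cell and m6A level. The part of each of these in the balance of the markers and of the protease genes was not tested.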

How the data were processed

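MeRIP-seq was done on RNA pooled from 8 Wtap-CKO and from 7 Wtapflox/flox hearts, with 300 µg listed for each sample. The RNA was fragmented to about 100 nt and, per the labels' protocols, read from both ends over 150 bases. Per the series' design text, exomePeak 2.16.0 compared the IP of either genotype with the matching input, and the authors retained peaks up to a q of 0.05. BWA 0.7.12 and fastp 0.19.11 appear in the submitters' processing notes with no role stated, beside the build GRCm39 and the motif tool HOMER 4.9.1. The deposited score column holds each peak's p-value, per the file headers and values. The authors' deposited log10 p and log10 q were taken as a score because some values are minus infinity. The fold is the authors' linear ratio of IP over input, and the sources used here do not state how libraries were scaled.

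Overlaps were computed in Python 3.11.15 (pandas 2.3.3, numpy 2.4.6), intervals with scipy 1.17.1 and figures with matplotlib 3.10.9. Shares have exact (Clopper-Pearson) 95% intervals. No p-value was computed, since either genotype had 1 pooled pair of libraries. The overlap code, tested on simulated data, found 100% of kept and 0% of moved peaks. The genes, lists and thresholds were chosen with earlier results of these data known. Per-peak values were planned for the best-known members, genes with peaks in 1 list only, genes with strong single-list peaks and the 2 members with most peaks per family, ties included. RefSeq symbols (GRCm38.p6) held 85 protein-coding genes under the rule, of which 47 had no row in either list. Sequences of the peaks were not used here, since no genome of the files' build was.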

Additional observations from a re-analysis of the deposited data

How the results depend on the processing

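Across 10 counts and 14 alternatives, 105 recomputed values stayed within 1.5 times the reported count, 4 were above that and 3 below. With strong set at q at or under 1e-05, the Wtap-CKO-only member peaks numbered 11 of 52 strong (21.2%, against 9.02% of all strong peaks) and the Wtapflox/flox-only ones 1 of 42 (2.38%, against 13.0%). With q at or under 1e-20, the Wtap-CKO-only ones numbered 3 of 27 (11.1%, against 1.43%). With folds of at least 4, the member count was 6 of 34 (17.6%), but the share of all strong Wtap-CKO peaks was 13.6%, over 1.5 times the reported 4.04%. Both shares include peaks whose counterpart was removed by the fold limit. Without Adamtsl2, an alternative added after the data were seen, the strong Wtap-CKO-only peaks also numbered 3. Of the genes of the proteolysis list, those with a Wtapflox/flox peak only numbered 1 at q at or under 0.001, and 4 each at folds of at least 2 and at least 4. In each of these settings the Wtap-CKO count was the larger. Requiring 50% overlap, ignoring strand, using whole spans, merging peaks or cutting both lists to an equal 20111 peaks moved no count by more than 1.5 times. Leaving out peaks that overlap another peak of their own list, and counting each gene once, both added after the data were seen, did not either. No paired analysis was possible because each genotype had 1 library of each kind. Depth is unknown, so peaks missing from a list may be below its detection.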

Other observations

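The folds of many peaks fell on a ladder. In the Wtap-CKO list, 22.2% of 5693 peaks with folds between 5 and 10 lay within 0.005 of a whole multiple of 0.9375, and in the Wtapflox/flox list 20.2% of 6116 peaks lay as near to a multiple of 0.802. Averaged over other step sizes, the share was 1.28% in each list. The most common fold of the whole Wtap-CKO list, 13.1, occurred 440 times. Among the protease genes the most common was 10.3 in the Wtap-CKO list, held by 7 peaks of Adam15, Adam1a, Adam33, Adamts19 and Adamts5. Their log10 q lay between -1.67 and -5.58. Of these, peaks in Adam15, Adamts19 and Adamts5 had the same log10 q of -1.67 and were 91, 91 and 121 bases long. Folds below 5 or above 10 were not set against the steps as a group. The high folds given above, such as those of Adam10, Adamts4, Adamts15 and Adamts17, were therefore not checked. The cause of the ladder was not tested.

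Mmp9, Timp1, Timp3 and Adam12, known for roles in heart remodelling, had no row in either list, nor had any other of the 47 family genes without a peak. Of 19 ADAMTS genes named in RefSeq 16 had a peak, against 8 of 23 MMP genes and 9 of 34 ADAM genes. The share over all RefSeq genes was not computed, so these counts have no background to be read against. Peak lists do not tell an unmethylated transcript from one that is not expressed.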
